A study of Mus musculus with 3 samples.

Results

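The genes described here build and police the attachment of chromosomes to the mitotic spindle. They were chosen by name, as the mouse CENP, BUB, MAD, NDC80-complex, Aurora, Polo-like kinase and CDCA families together with Zwint, Incenp, Birc5, Kntc1, Ttk, Espl1, Cdc20, Ube2c, Nek2, Tpx2, Mki67, Pttg1 and the shugoshin Sgo1. A total of 55 genes, read by 56 probe sets, met this rule, out of 20751 genes (22081 probe sets) tested. Aurkc had 2 probe sets and every other gene 1. Mis12 and Cenpu had no probe set assigned to them alone and were not analysed here.

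RNA was measured on 1-colour arrays in 3 biological replicate cultures of the medial ganglionic eminence (MGE), labelled as purified interneurons, from wild-type CD-1 mouse embryos at embryonic day 13. The MGE is a zone of the embryonic ventral forebrain in which progenitors divide and give rise to GABA-releasing interneurons. All 3 cultures were grown with FGF2 (40 ng/ml) at 59000 cells per square centimetre and received 1 µM AraC, a nucleoside analogue that kills cells in DNA synthesis, for 24 h from day 5. The drug was then washed out with 3 medium changes, 2 h apart, and RNA was taken 2 days later, so every culture had been treated and none was left without AraC. The cultures form a single group with nothing to set it against, so the data answer which of these genes gave signal and how far the cultures differed.

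At mitosis each chromosome carries a kinetochore, a protein plate built on centromeric chromatin, which captures spindle microtubules. Until every kinetochore is attached, the spindle assembly checkpoint holds back Cdc20, the activator of the anaphase-promoting complex. Once it is released, the complex marks securin and cyclin B for destruction, separase cuts the cohesin rings and the chromatids part. Aurora and Polo-like kinases correct faulty attachments and drive the steps in order. Neurons have left the cell cycle, and transcripts of this machinery are commonly read as a sign of dividing cells.

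Of the 55 genes, 52 (94.5%) gave signal above background, against 63.4% of all 20751 genes tested. The line for background lay at 6.26 log2 units, the 95th percentile of 1440 probe sets of sensory receptor genes (odorant, pheromone and bitter taste) not expected in this tissue, and a gene was called when limma's 1-sided moderated test over the 3 cultures passed an adjusted p of 0.05. The 3 genes that did not pass were Cenpw, Cenpl and Aurkc. With a margin of 1 log2 unit above that line 45 of the 55 genes (81.8%) passed, against 47.6% of all genes. At the 99th percentile 48 of the 55 passed, against 49.9% of all genes. The median of the gene means was 8.26 log2 units, beside 7.34 for all genes tested and 8.54 for all genes above background. Values below are log2 signals of cultures 1, 2 and 3 in that order, or a mean ± SD over n = 3, and levels of different genes were not ranked because probe sets bind with different strength.

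Markers of the labelled cells were present. All 10 general neuronal markers and all 12 markers of MGE and GABA neurons were above background, among them Tubb3 (11.79 ± 0.16), Lhx6 (10.21 ± 0.10) and Gad2 (10.74 ± 0.26). So were 10 of 11 markers of neural progenitors and radial glia, 10 of 10 of oligodendrocyte precursors and 8 of 10 of astrocytes. In microglia 4 of 10 and in endothelium and pericytes 7 of 10 passed, and 0 of either list with the margin of 1. With that margin 9 progenitor, 9 oligodendrocyte precursor and 6 astrocyte markers passed, and all of both neuronal lists. Over all genes tested 63.4% passed, and 47.6% with the margin. An array reads a culture in bulk. The cells that carried the division transcripts cannot be told from it, and few cells rich in a transcript cannot be told apart from many cells with little of it.

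**Figure D1:**
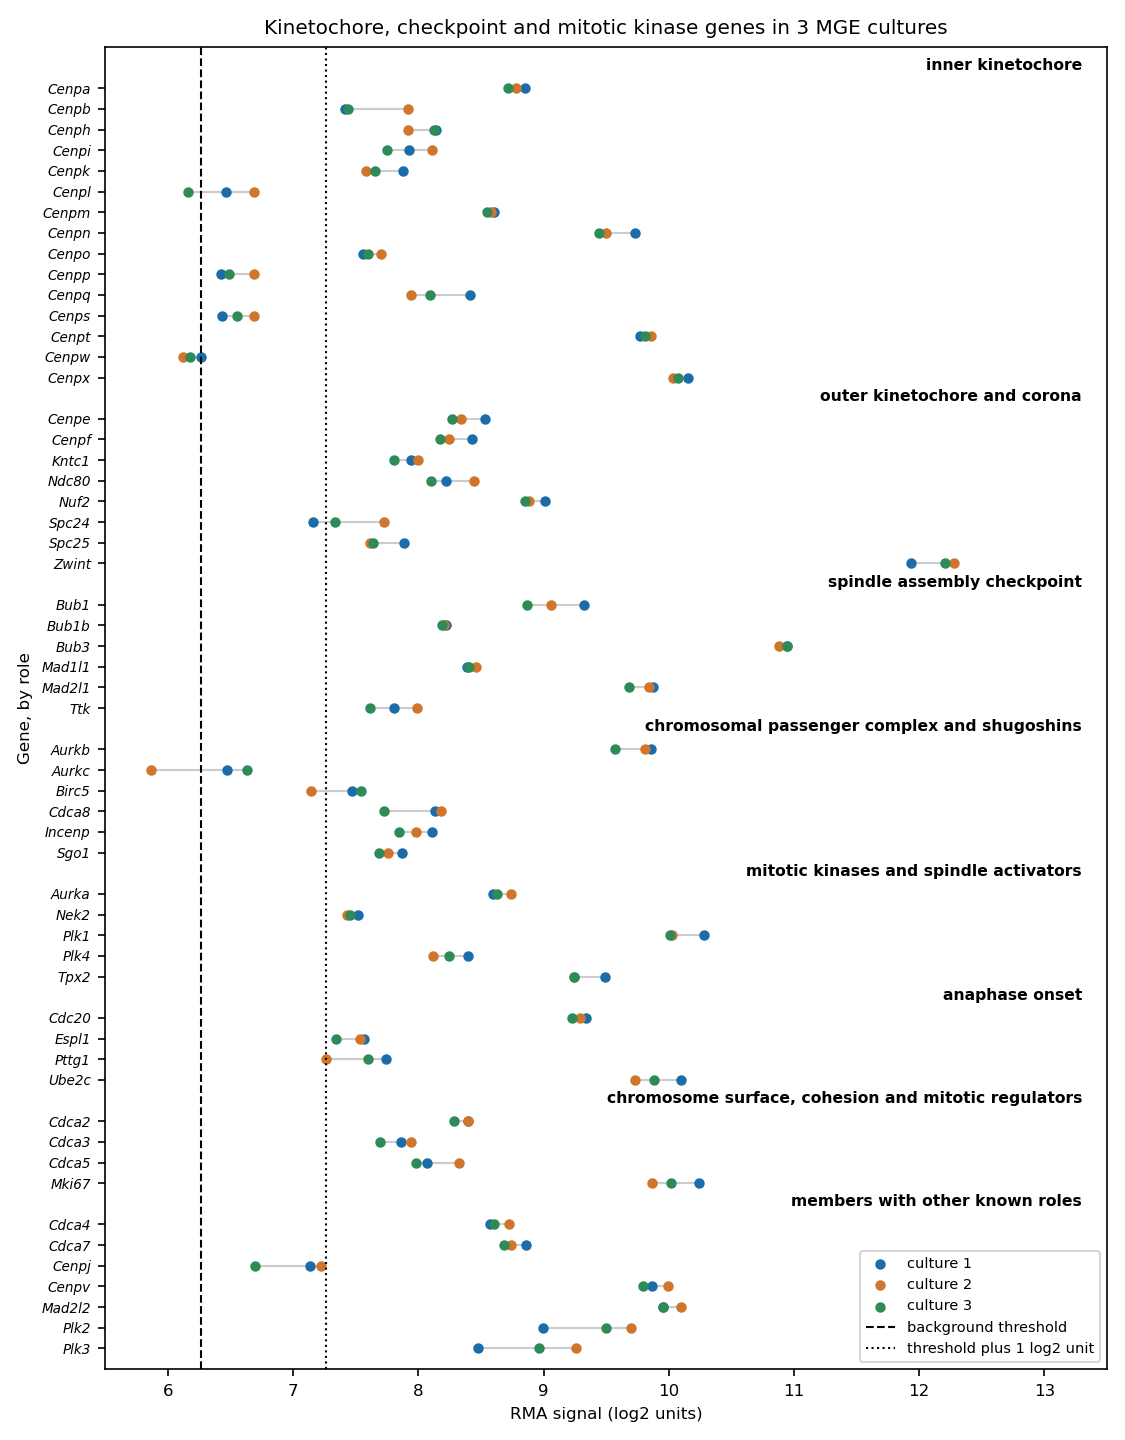
Log2 RMA signal (x axis) of each of the 55 genes (rows, grouped by role) in cultures 1, 2 and 3 (points; the grey line joins the lowest and the highest). The dashed line is the background threshold of 6.26 and the dotted line lies 1 log2 unit above it. Cenpw, Cenpl and Aurkc lie around the dashed line, and Plk2, Plk3 and Aurkc have the widest gaps between cultures.

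Promoter sequences were examined because genes of late cell cycle phases are known to share a pair of promoter elements. One is the cell cycle genes homology region (CHR), spelled TTTGAA, which recruits the DREAM repressor complex in resting cells and the MYB-MuvB complex with FOXM1 in dividing cells. The other is the CCAAT box, bound by the factor NF-Y. RefSeq (GRCm38.p6) windows running from 250 bases before the annotated start to 50 bases after it were found for 50 of the 55 genes (57 windows, since some genes have several starts). Both motifs were searched on both strands, as TTTGAA or TTCAAA and as CCAAT or ATTGG. They were 2 of 4 motifs scanned, and they and their pair were kept after the shares of all 4 had been seen. The others were TTTAAA, a variant of the CHR, in 19.3% of these windows (10.7% of the windows of all genes tested), and GGCGGGAA, an E2F-type site, in 5.26% (3.05%).

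A CHR match and a CCAAT match stood together in 20 of the 57 windows (35.1%), against 5.67% of 19393 windows of all genes tested and 4.56% of 13102 windows of genes above background. The CHR motif was present in 38.6% of the windows (14.1% of all genes tested) and CCAAT in 63.2% (37.4%). Of 24 CHR matches 20 began no more than 60 bases before the start or after it, and the median position was -9. In Cdca8, Cenpw and Kntc1 a CHR match overlapped a CCAAT match. These counts describe letters in a window and do not show that a factor bound there.

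**Figure D2:**
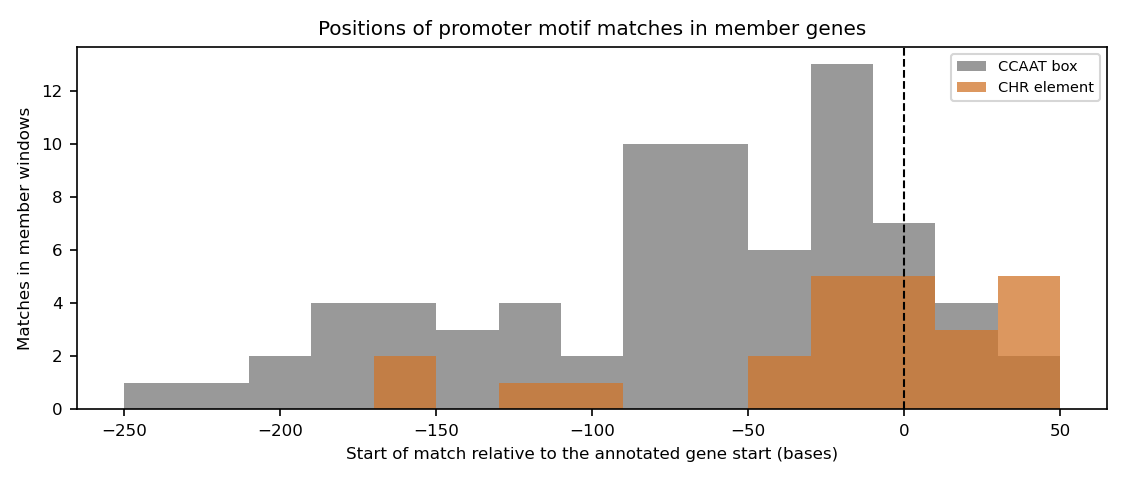
Number of motif matches (y axis) in the 57 promoter windows by distance of the match from the annotated start in bases (x axis, bins of equal width), for CCAAT (grey) and CHR (orange). CHR matches gather at the start, 20 of 24 lying at or after -60, and windows of the same gene that overlap count a shared match more than once.

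The 6 promoters that follow, from -120 to 25 around the start, were picked after the matches had been located, because they hold both motifs in that stretch and belong to several of the role groups described below. That of Plk2, 1 of 16 genes with neither the TTTGAA nor the CCAAT motif, is printed beside them for contrast. The stretches of Plk2 and Cenpa also hold TTTAAA, the CHR variant scanned above, which is left in lower case. Capitals mark the CHR and CCAAT letters on either strand.
Cdc20 (chr4:118437319-118437463, minus strand): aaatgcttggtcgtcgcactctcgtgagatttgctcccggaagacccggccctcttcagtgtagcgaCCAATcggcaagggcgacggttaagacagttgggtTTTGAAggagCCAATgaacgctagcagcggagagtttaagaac
Cenpa (chr5:30666766-30666910, plus strand): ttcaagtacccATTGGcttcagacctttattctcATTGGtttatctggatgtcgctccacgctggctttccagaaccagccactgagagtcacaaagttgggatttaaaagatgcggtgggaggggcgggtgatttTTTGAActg
Cdca8 (chr4:124936893-124937037, minus strand): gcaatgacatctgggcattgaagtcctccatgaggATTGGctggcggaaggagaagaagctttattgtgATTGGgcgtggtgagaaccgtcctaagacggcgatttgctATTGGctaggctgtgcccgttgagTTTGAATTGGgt
Cenpf (chr1:189688062-189688206, minus strand): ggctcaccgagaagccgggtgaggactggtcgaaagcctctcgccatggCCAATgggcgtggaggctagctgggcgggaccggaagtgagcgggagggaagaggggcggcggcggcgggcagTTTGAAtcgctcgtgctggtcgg
Espl1 (chr15:102296173-102296317, plus strand): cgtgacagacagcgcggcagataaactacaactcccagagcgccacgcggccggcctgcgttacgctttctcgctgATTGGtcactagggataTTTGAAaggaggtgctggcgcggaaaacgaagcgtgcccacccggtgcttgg
Ube2c (chr2:164769809-164769953, plus strand): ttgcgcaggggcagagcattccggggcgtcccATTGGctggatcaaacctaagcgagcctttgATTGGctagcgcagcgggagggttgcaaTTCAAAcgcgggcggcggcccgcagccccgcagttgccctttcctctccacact
Plk2 (chr13:110394924-110395068, plus strand): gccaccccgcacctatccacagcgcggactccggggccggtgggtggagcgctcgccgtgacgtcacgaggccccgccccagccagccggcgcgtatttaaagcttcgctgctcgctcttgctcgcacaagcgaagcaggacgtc
In Cdc20 the CHR match began at -18, between CCAAT matches at -53 and -8. Espl1 had 1 CCAAT match at -44 and a CHR match at -27, and Ube2c a CHR match at -29 preceded by CCAAT matches at -57 and -88. In Cenpf, Cdca8 and Cenpa the CHR match lay just after the annotated start, at 3, 14 and 17. Plk1, not printed, had CCAAT at -14 and CHR at 31. The window of Mki67 held CHR matches at -116 and -98, farther upstream than in those genes.

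The inner kinetochore is the layer that sits on centromeric chromatin. Of its 15 genes 13 were above background, with adjusted p between 1.39e-06 and 0.0166. Cenpa, the histone variant that marks the centromere, gave 8.85, 8.78 and 8.71 log2 units. The cultures thus lay within 0.14 of each other, with culture 1 highest. Cenpb, which binds a repeated box in centromeric satellite DNA, gave 7.41, 7.91 and 7.44, and culture 2 stood above the other two. The other genes belong to the constitutive network that links CENP-A nucleosomes to the outer plate. Of the Cenph, Cenpi and Cenpk subcomplex all members passed (8.06 ± 0.13, 7.93 ± 0.18 and 7.70 ± 0.15), as did Cenpm (8.58 ± 0.03), their partner.

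Cenpn (9.56 ± 0.15), which reads the CENP-A nucleosome, passed, while Cenpl, its partner, gave 6.47, 6.69 and 6.16 and did not (adjusted p = 0.158). Cenpl lay above the line in cultures 1 and 2 and below it in culture 3, and without culture 3 it passed (adjusted p = 0.0469). Of the Cenpo, Cenpp and Cenpq group, Cenpo (7.62 ± 0.07) and Cenpq (8.15 ± 0.24) passed. Cenpp gave 6.42, 6.69 and 6.49 (adjusted p = 0.0166), all close above the line. The histone-fold proteins differed in call. Cenpt (9.81 ± 0.05), which ties the network to the NDC80 complex, and Cenpx (10.09 ± 0.06) passed, and Cenps gave 6.43, 6.68 and 6.55 (adjusted p = 0.0107). Cenpw, the partner of Cenpt, gave 6.26, 6.12 and 6.17 and was not above background (adjusted p = 1). The calls of Cenpp and Cenps were lost without culture 2 (adjusted p = 0.0939 and 0.0824) and without culture 3 (0.0670 and 0.0602).

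In the outer kinetochore, which holds the microtubule, 8 of 8 genes were above background. The NDC80 complex is a rod of 4 proteins that forms the main microtubule contact. Ndc80 gave 8.22, 8.44 and 8.10 and Spc24 7.16, 7.72 and 7.33, both highest in culture 2. Nuf2 gave 9.01, 8.89 and 8.85 and Spc25 7.89, 7.62 and 7.64, both highest in culture 1. The 4 subunits of 1 complex thus did not share an order of cultures, and the call of Spc24 was lost with the margin of 1. Cenpe, the kinesin that carries chromosomes to the spindle equator, gave 8.53, 8.34 and 8.27, and Cenpf, a large corona protein, gave 8.43, 8.25 and 8.17. Both were highest in culture 1 and lowest in culture 3. Kntc1 (7.91 ± 0.10), the ROD subunit that brings dynein to kinetochores, passed too.

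Zwint, the Knl1-binding protein that helps recruit the ROD complex, gave 11.93, 12.28 and 12.20. Culture 1 was the lowest, the reverse of Cenpe and Cenpf. Zwint is also known from brain as a partner of Snap25, the synaptic vesicle fusion protein. Snap25 gave 12.67, 12.97 and 13.05, also lowest in culture 1. Of the 10 general neuronal markers 8 were lowest in culture 1, beside 39.0% of all genes. The part of neuronal cells in the Zwint signal was not tested.

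The spindle assembly checkpoint had 6 of 6 genes above background, and all 6 passed with the margin of 1. Bub1b, the BubR1 component of the inhibitory complex, gave 8.22, 8.20 and 8.19, and Mad1l1, the scaffold that presents Mad2 at kinetochores, gave 8.39, 8.46 and 8.40. The 3 cultures were nearly equal for both, spanning 0.03 and 0.07. Bub3, the adaptor for Bub1 and BubR1, gave 10.94, 10.88 and 10.94. Mad2l1, the Mad2 protein that binds Cdc20, gave 9.87, 9.85 and 9.68. Bub1, the kinase that marks centromeric chromatin, gave 9.32, 9.06 and 8.87 and had the widest span of the 6. Ttk, the Mps1 kinase that starts checkpoint signalling, gave 7.81, 7.99 and 7.61, so that culture 3 was lowest for Mad2l1, Bub1 and Ttk alike.

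Among the chromosomal passenger genes, whose complex corrects wrong attachments, the single member below the call was the germ cell kinase. Aurkb, the catalytic subunit in somatic cells, gave 9.86, 9.81 and 9.57. Incenp, its scaffold, gave 8.11, 7.98 and 7.85, and Birc5, the survivin subunit, gave 7.47, 7.14 and 7.55. Culture 2 was the lowest for Birc5 and culture 3 for Aurkb and Incenp, and Birc5 lost its call with the margin of 1 (adjusted p = 0.281). Cdca8, the borealin subunit, was above background (8.01 ± 0.25). Sgo1, the shugoshin that shields centromeric cohesin, passed as well (7.77 ± 0.09).

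Aurkc replaces Aurkb in germ cells, and neither of its probe sets passed. One gave 6.47, 5.86 and 6.63 (adjusted p = 0.555) and the other 6.03, 6.04 and 6.02 (adjusted p = 1). The first lay above the line in cultures 1 and 3 and below it in culture 2, and the second lay below it in all 3.

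The mitotic kinases had 5 of 5 genes above background, each also with the margin of 1. Aurka, the Aurora kinase of centrosomes and spindle poles, gave 8.59, 8.74 and 8.62, and Tpx2, which activates it on microtubules, gave 9.49, 9.25 and 9.24. Kinase and activator did not share an order, since Aurka was highest in culture 2 and Tpx2 in culture 1. Plk1, the Polo-like kinase of mitotic entry and cytokinesis, gave 10.28, 10.03 and 10.01. Plk4, the kinase that starts centriole duplication, gave 8.39, 8.12 and 8.25. Culture 1 was highest for both, as it was for Nek2 (7.47 ± 0.05), a kinase that separates centrosomes.

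All 4 genes of anaphase onset were above background and all 4 were highest in culture 1. Cdc20 gave 9.34, 9.29 and 9.22, and Ube2c, the ubiquitin-conjugating enzyme of the anaphase-promoting complex, gave 10.10, 9.73 and 9.88. The span over cultures was 0.12 for Cdc20 and 0.36 for Ube2c. Espl1, the protease separase, gave 7.56, 7.54 and 7.34. Pttg1, the securin that blocks separase until anaphase, gave 7.74, 7.26 and 7.60 and lost its call with the margin of 1 (adjusted p = 0.0715). By comparison, culture 1 was the highest for 33.2% of all genes tested.

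Mki67, the Ki-67 protein that coats mitotic chromosomes and marks cycling cells, gave 10.24, 9.86 and 10.01, with culture 1 highest. The other 3 genes of chromosome structure and mitotic timing were highest in culture 2 and lowest in culture 3. They were Cdca2 (8.36 ± 0.07), the Repo-Man subunit that guides a phosphatase to anaphase chromatin, Cdca3 (7.83 ± 0.13), a trigger of mitotic entry, and Cdca5 (8.12 ± 0.18), the cohesin protector sororin. All 4 passed with the margin of 1.

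The rule also takes in 7 genes that share a family name with mitotic genes and were grouped here under other known roles. All 7 were above background. The grouping is not strict, since Cenpv acts on centromeric chromatin and Cenpj, like Plk4 above, serves centrioles. Plk2 and Plk3 are Polo-like kinases known as stress and activity responders, and Plk2 is induced by firing in neurons and acts on synapses. Plk2 gave 9.00, 9.70 and 9.50 and Plk3 gave 8.48, 9.26 and 8.96. Culture 1 was lowest and culture 2 highest for both, with spans of 0.70 and 0.78. Plk1 and Plk4, by contrast, were highest in culture 1. The different order was not tested, since each culture is 1 array.

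Activity-induced genes were examined beside Plk2 and Plk3 with a list written after those values were seen. Of its 10 genes 8 were above background, beside 63.4% of all genes tested. Of the 10, 6 were lowest in culture 1 and 4 in culture 2, beside 39.0% and 32.5% of all genes. Npas4, a factor induced by neuronal calcium entry, gave 7.39, 9.21 and 9.64, and Fos gave 7.17, 8.55 and 8.54. Both were lowest in culture 1, like Plk2 and Plk3. Npas4 was highest in culture 3, as were 7 of the 10 genes, beside 22.5% of all genes. Culture 2, the highest for Plk2 and Plk3, was the highest for 1 of the 10, beside 44.3% of all genes. Btg2 (9.78, 9.42 and 9.51) was highest in culture 1.

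The other 5 genes of this kind also passed. Mad2l2 (10.00 ± 0.08), known as Rev7, serves translesion DNA synthesis and double-strand break repair. Cenpv (9.88 ± 0.10) acts on centromeric chromatin and microtubules, and Cenpj (7.02 ± 0.28) builds centrioles. Cenpj lost its call at the 99th percentile and with the margin of 1. Cdca4 (8.63 ± 0.08) is a transcriptional regulator linked to E2F, and Cdca7 (8.76 ± 0.09) works with the chromatin remodeller Hells in DNA methylation. Of the 5, all but Cdca7 were highest in culture 2.

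Genes of the same pathways outside the naming rule were mostly above background. Among other kinetochore and centromere genes 14 of 15 were above background, with Knl1 (8.45 ± 0.03), Dsn1 (8.30 ± 0.14) and Nsl1 (7.24 ± 0.06), the partners that receive the NDC80 complex, among them. Ska1 (6.38 ± 0.20, adjusted p = 0.198), which helps kinetochores follow shrinking microtubules, did not pass. For the anaphase-promoting complex and its regulators the count was 18 of 18, including the subunits Anapc1 (10.24 ± 0.01), Anapc2 (9.30 ± 0.08) and Anapc4 (9.02 ± 0.07). Neurons are known to use this complex after they stop dividing. For cohesin and condensin it was also 18 of 18, including Smc1a (9.27 ± 0.02), Smc3 (10.12 ± 0.06) and Rad21 (10.89 ± 0.08), core parts of the cohesin ring.

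Mitotic entry genes passed in 17 of 18 cases, with Cdk1 (10.37 ± 0.16), Ccna2 (10.82 ± 0.19) and Ccnb2 (9.71 ± 0.19), the kinase and its cyclins, among them. Haspin (6.24 ± 0.14), the histone kinase that helps place the passenger complex, did not pass. Spindle and cytokinesis genes passed in 19 of 19, including Prc1 (9.12 ± 0.14), which bundles the central spindle, Anln (8.52 ± 0.16), a scaffold of the contractile ring, and Ect2 (9.69 ± 0.15), which is needed for cytokinesis. DNA replication genes, the target phase of AraC, passed in 18 of 19, with the helicase subunits Mcm2 (9.18 ± 0.11), Mcm3 (8.64 ± 0.18) and Mcm4 (9.77 ± 0.09) above background and Gins1 (6.23 ± 0.09) not. Over these 6 lists 104 of 107 genes were called, beside 52 of the 55 and 63.4% of all genes. Their median mean was 8.89 log2 units.

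A list of genes of meiosis gave a different count, 1 of 14. That gene was Stag3 (8.92 ± 0.08), a cohesin subunit of meiosis, named after its value was seen. Rec8 (5.66 ± 0.10), the cohesin clasp of meiosis, Smc1b (5.41 ± 0.07) and the synaptonemal complex proteins Sycp1 (4.66 ± 0.41), Sycp2 (5.34 ± 0.14) and Syce1 (5.45 ± 0.12) did not pass. Meikin, Majin, Hormad1, Tex11, Meiob, Dmc1, Spo11 and Msh4 did not pass either. The median mean of the 14 was 5.38 log2 units. Sgo2a, a shugoshin of meiosis that passed, was not on this list and is given at the end.

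**Figure D3:**
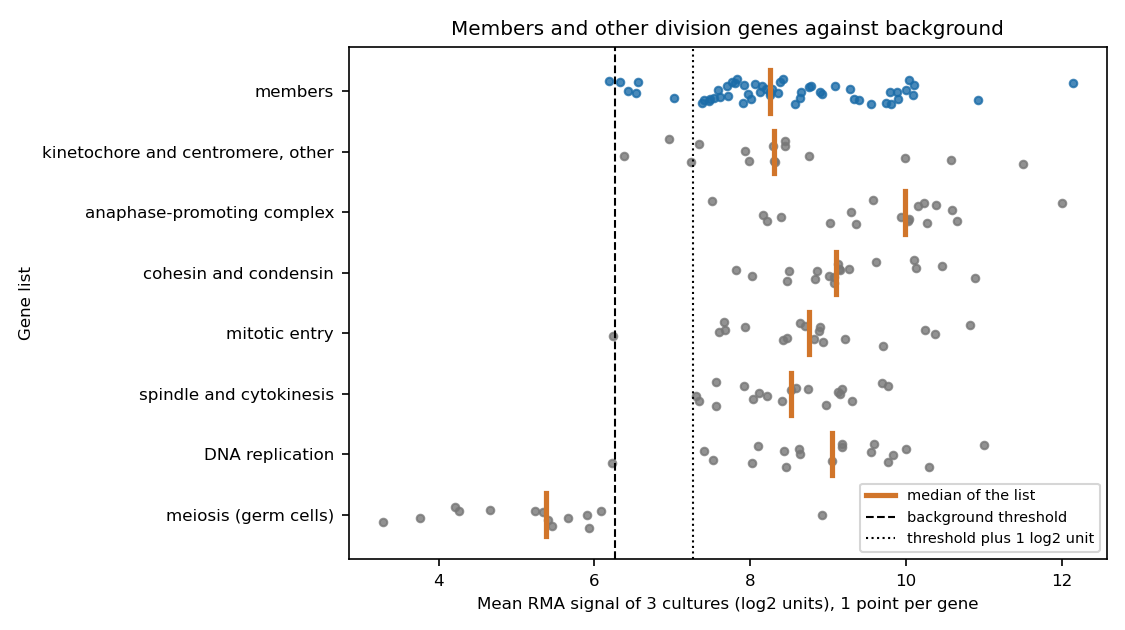
Mean log2 RMA signal over 3 cultures (x axis, 1 point per gene) for the 55 genes and 7 lists of related genes (rows), with the median of each list as an orange bar. The dashed line is the threshold of 6.26 and the dotted line 1 log2 unit more. In the meiosis list 1 of 14 genes lies above background, and in each of the other lists all or nearly all do.

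Over all 3 cultures the 55 genes varied about as much as other genes. Their median SD was 0.13 log2 units, beside 0.13 for all genes tested and 0.12 for genes above background. Without culture 2 it was 0.11, beside 0.08 for all genes tested. Without culture 1 the values were 0.10 and 0.10, and without culture 3 0.13 and 0.13. Of the 55 genes, 7 (12.7%) spanned more than 0.5, beside 13.8% of all genes. Those 7 were Plk3, Aurkc, Plk2, Spc24, Cenpl, Cenpj and Cenpb. None of the 107 pathway genes of the 6 lists spanned more than 0.5, and the highest span there was 0.46.

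The direction of the small differences was uneven. Culture 3 was the lowest for 28 of the 55 genes (50.9%, beside 28.5% of all genes) and the highest for 3 (5.45%, beside 22.5%). Culture 1 was the highest for 28 (50.9%, beside 33.2%). Culture 1 exceeded culture 3 in 39 genes (70.9%, beside 46.8% of all genes), with a median difference of 0.13. Over the 107 pathway genes culture 1 exceeded culture 3 in 82. Each culture is 1 array, so none of this was tested, and genes of 1 culture are not independent.

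By role, the median deviation of culture 1 from each gene's own mean was 0.14 for the mitotic kinases, 0.14 for anaphase onset and 0.12 for the passenger group. It was 0.06 in the outer kinetochore, 0.03 in the inner kinetochore and 0.02 in the checkpoint group. In the genes with other known roles it was -0.05. By promoter, the 19 genes with both CHR and CCAAT had median deviations of 0.07, 0.00 and -0.07 in cultures 1, 2 and 3, and 11 of the 19 were highest in culture 1. The 15 genes with 1 of the motifs were much alike, with 0.07, -0.03 and -0.05, and 9 of the 15 were highest in culture 1. For all 55 genes the medians were 0.07, 0.01 and -0.06. In the 16 with neither motif 5 were highest in culture 1 and 10 in culture 2, beside 33.2% and 44.3% of all genes. All 16 were above background, and over all genes above background the shares were 32.4% and 52.1%. Those 16 include Plk2, Plk3, Cenpj, Cenpv and Cdca7 of the genes with other known roles, so promoter classes and role groups overlap. The promoter classes were formed after the values were seen and the difference was not tested.

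Cell type markers also differed between the cultures. All 11 progenitor and radial glia markers, 9 of 10 oligodendrocyte precursor markers and 9 of 10 astrocyte markers were highest in culture 1, beside 33.2% of all genes. For microglia the count was 3 of 10 and for endothelium and pericytes 2 of 10. The median level of the progenitor list was 10.07, 9.32 and 9.61 in cultures 1, 2 and 3, that of the oligodendrocyte precursor list 9.82, 9.41 and 9.47, and that of the astrocyte list 8.41, 7.49 and 8.08. In the MGE and GABA neuron list 11 of 12 were lowest in culture 1, beside 39.0% of all genes. The median level of that list was 10.27, 10.64 and 10.42. For the 55 division genes the median level was 8.39, 8.32 and 8.19, lowest in culture 3. Culture 2 was the lowest for the progenitor, oligodendrocyte precursor and astrocyte lists. Role groups of the 55 differed in this. The median deviation was lowest in culture 2 for the mitotic kinases (-0.08) and anaphase onset (-0.08). It was lowest in culture 3 for the inner and outer kinetochore, checkpoint, passenger and chromosome structure groups. In the genes with other known roles it was lowest in culture 1. Counts of genes were less uneven than these medians in some groups. In the inner kinetochore 5 of 15 genes were lowest in each culture. In the mitotic kinases 2 of 5 were lowest in culture 2 and 2 in culture 3, and in anaphase onset 2 of 4 and 2. The part of glia, progenitors and neurons in the division signal was not tested.

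**Figure D4:**
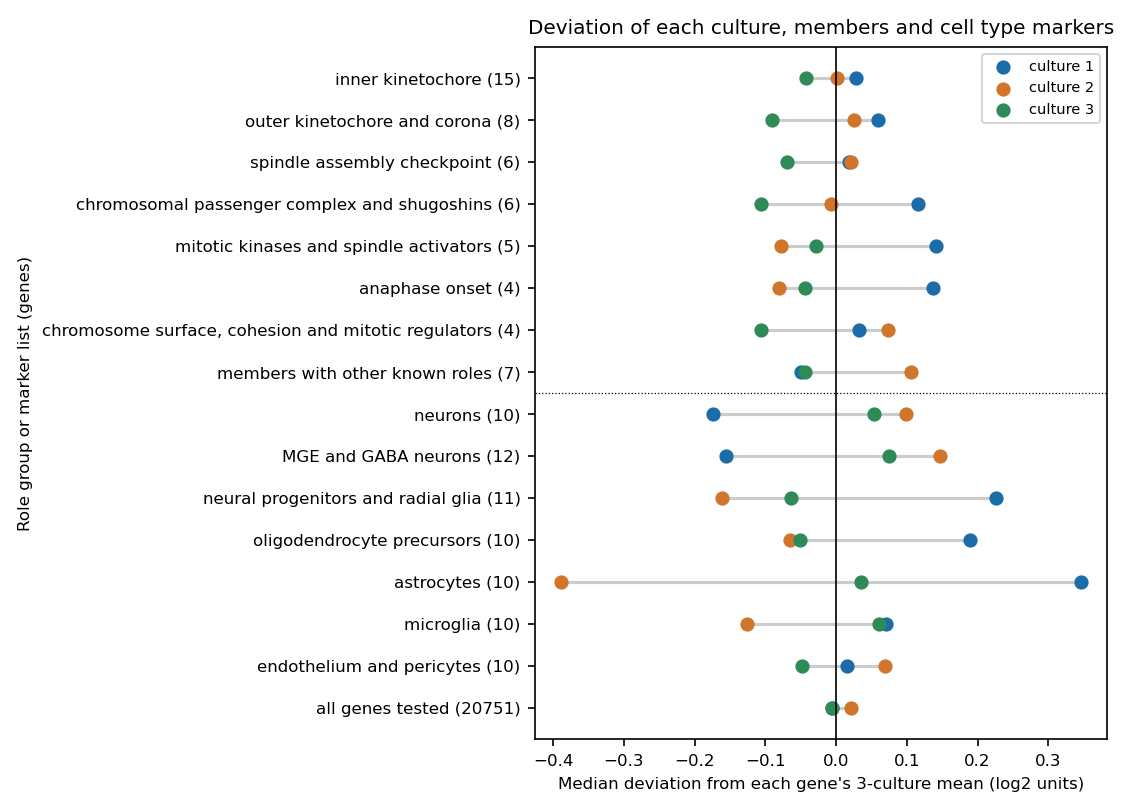
Median deviation from each gene's own 3-culture mean in log2 units (x axis) for each role group of the 55 genes (above the dotted line) and each cell type marker list and all genes tested (below it), with 1 point per culture and the number of genes in brackets. Culture 1 reaches 0.14 for the mitotic kinases and for anaphase onset and is the highest point for progenitors, oligodendrocyte precursors and astrocytes, while it is the lowest for both neuronal lists.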

How the data were processed

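The authors deposited 1 log2 signal for each probe set in each culture, made with RMA in oligo per the submitters' processing notes, that is, with background correction, normalization between arrays and summary over probes. Tool versions and filters: not given in the sources used here. There is no read depth on arrays; their number sets the precision. Nothing says whether the cultures came from separate litters, so p-values measure the spread between these 3 arrays.

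Gene names were taken from the probe table of the platform. Of 41345 probe sets 23521 carry 1 gene symbol and were used, 1814 carry several and 16010 none. RefSeq (GRCm38.p6) held all 55 gene identifiers, and 0 symbols differed. No genome build is named for the array, so no gene coordinates are given; those of promoters are RefSeq's.

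limma (3.58.1, R 4.3.3) fitted an intercept per probe set with 2.13 prior degrees of freedom, with Benjamini-Hochberg adjustment over 22081 probe sets. A gene was called if any probe set passed, and the probe set with the highest mean is printed. On simulated data, 50 probe sets were set at each of 4 excesses over the threshold, 0.25, 0.5, 1 and 2 log2 units, and 35, 45, 46 and 50 of them passed in a fit of 22081, as did 14 of 7310 with a true mean below it. The members, lists, tests and named genes (every member; in each pathway list the first 3 and those not called) were chosen with earlier results of these data known.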

Additional observations from a re-analysis of the deposited data

How the results depend on the processing

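The count of 52 genes above background moved to 48 at the 99th percentile (threshold 7.10), 46 with other gene families as background (158 probe sets, threshold 7.23), 45 with the margin of 1 and 55 at the 90th percentile (5.82), where Cenpw, Cenpl and Aurkc passed. It lay between 50 and 52 when 1 culture was left out, and was 52 with an intensity trend, quantile normalization, median centring, dim probe sets left out, the mean of a gene's probe sets, or every culture above the line with no test. Pttg1 and Birc5 lost their calls also with the other families (adjusted p = 0.0525 and 0.192). The meiosis list rose from 1 to 2 of 14 at the 90th percentile, when Dmc1 passed. The counts of the other 6 pathway lists stayed within 1.5 times under these alternatives. Marker lists were recounted only at the 99th percentile and with the margin of 1, where microglia fell from 4 to 0 under both and endothelium and pericytes from 7 to 1 and 0. Under both, astrocyte markers fell from 8 to 6, and progenitor and oligodendrocyte precursor markers each from 10 to 9. The neuronal lists did not change. The activity-induced genes, recounted likewise, fell from 8 to 6 and 5. Single genes were scored by whether the call was kept, lost or gained, since a level has no sign. The median deviation of the 55 genes in culture 1 was 0.07, and 0.08 after quantile normalization and 0.05 after median centring. In culture 2 it was 0.01, -0.02 and 0.04, so its sign depends on the scaling, and in culture 3 it was negative in all 3 (-0.06, -0.04 and -0.07). No paired analysis was possible because the 3 cultures form 1 group.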

Other observations

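Sgo2a, the second shugoshin of the mouse, which protects cohesin in meiosis, falls outside the naming rule. It gave 7.01, 7.06 and 7.08 log2 units and was above background (adjusted p = 8.65e-05), though not with the margin of 1. Cenpc1, the inner kinetochore hub, and Itgb3bp, known as CENP-R, also fall outside it. Cenpc1 gave 8.94, 8.59 and 8.72 and was above background, with culture 1 highest. Itgb3bp gave 7.32, 7.13 and 7.56 and passed, with culture 3 highest.

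Factors that read CHR and related promoter elements were above background too. Foxm1 gave 8.88, 8.90 and 8.67, and Mybl2, the B-MYB protein, gave 8.66, 8.80 and 8.47. Both were highest in culture 2 and lowest in culture 3. Lin9 (7.75, 7.71 and 7.58) and Lin54 (8.83, 8.92 and 8.91), subunits of the MuvB core that DREAM and MYB-MuvB share, passed. Lin9 was lowest in culture 3 and Lin54 in culture 1, so these factors did not share an order of cultures. The genes named here were picked after their values were seen.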
